A study of Mus musculus with 10 samples.

Results

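The genes described here encode chaperones and folding factors of the endoplasmic reticulum (ER) together with sensors and targets of the unfolded protein response: Ern1, Ern2, Xbp1, Hspa5, Hsp90b1, Hyou1, Pdia4, Sdf2l1, Creld2 and Herpud1. They were followed through every probe set annotated to 1 of them alone, 24 of the 34945 single-gene probe sets on the array, and they make up 10 of the 18193 genes measured. The question was how their transcripts differed between inflamed and non-inflamed colon.

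Each array measured the RNA of distal colon tissue of 1 Rag1-/- mouse on the C57BL/6 background. The distal colon ran from the rectum to the border with the proximal part. By the paper's methods, only a part of each colon was snap frozen for the arrays. The severely inflamed colons (n = 3) and the moderately inflamed colons (n = 3) came from mice given naïve T cells, and the control colons (n = 4) from mice given regulatory T cells (Treg), which do not bring on colitis in this T cell transfer (TCT) model. All mice were injected at 10 weeks of age, killed 2 to 3 months later and labelled 4 to 5 months old. All of them, controls included, lack Rag1, which lymphocytes need to rearrange their receptors, so they make no T or B cells of their own. Values are log2 RMA values per probe set, and a gene with several probe sets was read at the one with the highest mean value.

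Proteins that are secreted or placed in membranes fold in the ER, where chaperones hold them, oxidoreductases join their disulfide bonds and failed products are sent back for degradation. When unfolded protein builds up, the sensors IRE1, PERK and ATF6 start the unfolded protein response. IRE1 cuts the mRNA of Xbp1 so that it encodes an active transcription factor, ATF6 is cleaved into one, and both raise chaperone genes, while PERK slows translation and favours ATF4. The intestine carries a second IRE1, encoded by Ern2 and found in mucus-producing epithelial cells, and goblet cells are among the most heavily secreting cells of the colon.

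Promoters of many genes in this pathway hold the ER stress response element (ERSE), which is CCAAT, any 9 bases and CCACG, or the shorter ERSE-II, which is ATTGG, any 1 base and CCACG. RefSeq promoter windows (build GRCm38.p6, 250 bases before to 50 after a start) were at hand for 8 of the 10 genes, all but Ern2 and Hyou1, and were searched on both strands. The stretches below are shown because they hold an exact match, given in capitals, with 20 bases on either side, written 5′ to 3′ on the strand of the gene. Where the capitals begin with CGTGG, the element lies on the opposite strand.
Hspa5, chr2:34772005-34772063, plus strand: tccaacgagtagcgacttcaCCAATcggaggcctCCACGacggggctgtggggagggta
Hsp90b1, chr10:86705618-86705676, minus strand: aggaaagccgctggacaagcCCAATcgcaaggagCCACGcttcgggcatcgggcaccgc
Hsp90b1, chr10:86705513-86705571, minus strand: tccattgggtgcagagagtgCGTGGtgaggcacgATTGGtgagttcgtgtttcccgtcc
Creld2, chr15:88819500-88819558, plus strand: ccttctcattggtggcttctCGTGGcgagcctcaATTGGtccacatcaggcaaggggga
Herpud1, chr8:94386357-94386407, plus strand: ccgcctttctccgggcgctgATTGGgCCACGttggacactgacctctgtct

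An exact ERSE was thus found in the windows of 3 of the 8 genes, Hspa5, Hsp90b1 and Creld2, and an ERSE-II in Herpud1. Of all 32851 promoter windows, 39 (0.119%) held an exact ERSE and 12 (0.0365%) an ERSE-II. With 1 mismatch allowed in the 10 fixed letters of the ERSE, Pdia4 and Herpud1 were added, making 5 of the 8, against 494 windows (1.5%) in all. The Xbp1, Ern1 and Sdf2l1 windows held no ERSE within that limit and no exact ERSE-II. The core of a further element, TGACG directly followed by TGG, occurred in 0 of the 8 windows and in 222 (0.676%) of all. The elements are known from promoters of genes in this pathway, so the matches are no independent support, and no enrichment was tested. A match of letters is a description of the sequence and was not tested for binding.

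In inflamed colon, 7 of the 10 genes were higher than in control, 1 was lower and 2 did not pass the test. The chaperones and folding factors Hspa5, Hyou1, Pdia4, Sdf2l1 and Creld2, the transcription factor Xbp1 and the degradation factor Herpud1 rose, by 1.33-fold (Xbp1) to 2.15-fold (Creld2). Ern2, the epithelial IRE1, fell by 0.87 on the log2 scale, which is 1.83-fold lower. The other IRE1 gene, Ern1, and the chaperone Hsp90b1 did not pass. A gene was called at an adjusted p under 0.05 (limma, two-sided, Benjamini-Hochberg over all 18193 genes), and by the same rule 18.5% of all genes were higher and 21.2% lower. All genes include dim ones, while the 10 genes lay at percentiles 72.7 (Ern2) to 99.2 (Hspa5) of mean value. They were also chosen with earlier results of these data known. The median log2 difference of the 10 genes was 0.45, beside 0.03 over all genes. For 6 of the genes all inflamed values were above all control values, and for Ern2 all were below, where 14.6% of all genes stood wholly above and 17.1% wholly below.

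**Figure D1:**
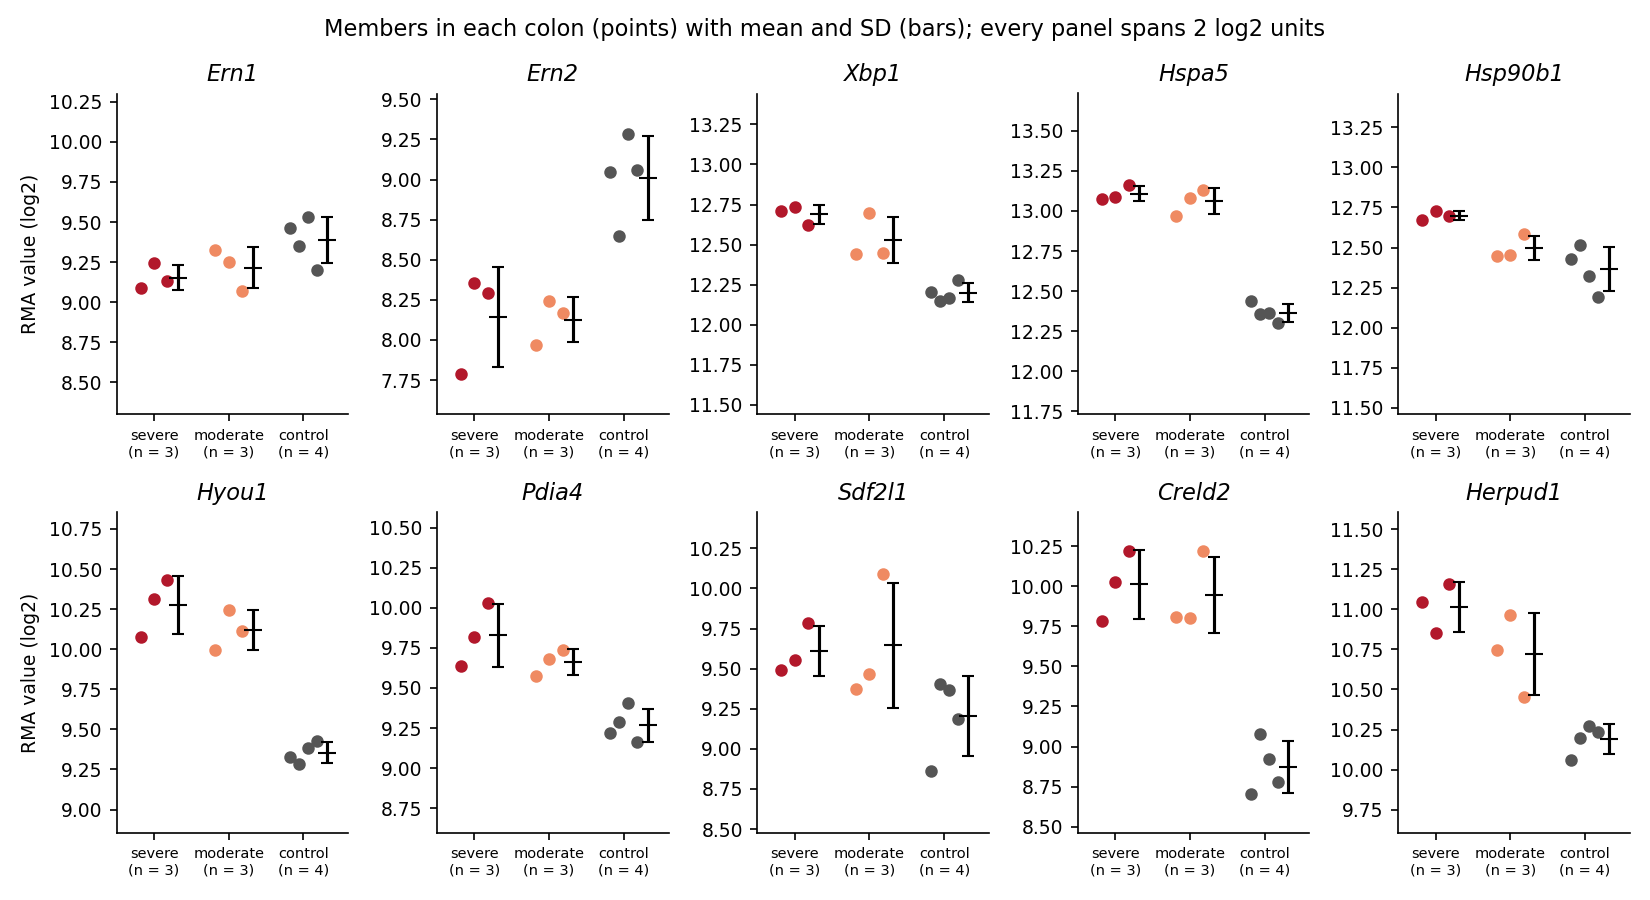
Log2 RMA value (vertical axis) of each of the 10 genes in the severely inflamed, moderately inflamed and control colons. Each point is 1 mouse, the bar is the group mean with its SD (n = 3, 3 and 4), and every panel spans the same height of 2 log2 units; inflamed and control points do not overlap in 7 of the panels, with Ern2 the panel in which the inflamed points lie below.

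Of the sensors, Ern2 encodes the IRE1 of mucus-producing epithelium. Its log2 values were 7.79, 8.36 and 8.29 in severe colons and 7.97, 8.24 and 8.17 in moderate colons, against 9.05, 8.65, 9.28 and 9.06 in control colons. All 6 inflamed colons lay below the lowest control, and the lowest was severe colon 1. The mean was 8.14 ± 0.22 in inflamed colons (SD, n = 6) and 9.01 ± 0.26 in control colons (SD, n = 4), a log2 difference of -0.87 with a standard error (SE) of 0.14 and an adjusted p of 0.000352. Ern2 has 1 probe set, so no further probe set bears on it.

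Ern1 encodes the IRE1 found in most tissues. The severe colons had log2 values of 9.09, 9.24 and 9.13 and the moderate colons of 9.32, 9.25 and 9.07, against 9.46, 9.35, 9.53 and 9.20 in control colons. The groups overlapped, and the log2 difference of -0.20 (SE 0.08) did not pass (adjusted p = 0.0707). Its 95% interval ran from -0.38 to -0.02. The call turned on single colons: without control 4 the difference was -0.26 (adjusted p = 0.0295), and without moderate colon 1 it was -0.23 (adjusted p = 0.0489). With the mean over the probe sets of Ern1, the difference shrank to -0.033 (adjusted p = 0.68).

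Xbp1 encodes the transcription factor that IRE1 activates by splicing. Its log2 values were 12.71, 12.74 and 12.62 in severe colons and 12.44, 12.69 and 12.45 in moderate colons, against 12.20, 12.15, 12.17 and 12.28 in control colons. All inflamed colons were above all controls, by a log2 difference of 0.41 (SE 0.08, adjusted p = 0.00142). These values are the amount of transcript, and its splicing was not analysed here.

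Hspa5 encodes BiP, the main HSP70 chaperone of the ER lumen, which also holds the sensors in check. The severe colons had log2 values of 13.08, 13.08 and 13.16 and the moderate colons of 12.97, 13.08 and 13.13, against 12.44, 12.36, 12.36 and 12.30 in control colons. The groups were well apart and each was narrow, with 13.08 ± 0.07 in inflamed colons (SD, n = 6) and 12.37 ± 0.06 in control colons (SD, n = 4). Hspa5 was 1.65-fold higher, a log2 difference of 0.72 (SE 0.06) with the smallest adjusted p of the 10 genes, 7.39e-06.

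Hyou1 encodes a larger relative of the HSP70 chaperones that works with BiP. Its log2 values were 10.08, 10.32 and 10.43 in severe colons and 10.00, 10.25 and 10.11 in moderate colons, against 9.33, 9.28, 9.39 and 9.43 in control colons. Every inflamed colon stood above every control, and the difference was 0.84 on the log2 scale (SE 0.09, 1.79-fold, adjusted p = 2.51e-05).

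Hsp90b1 encodes the HSP90 chaperone of the ER. The severe colons had log2 values of 12.67, 12.73 and 12.70 and the moderate colons of 12.45, 12.45 and 12.58, against 12.43, 12.51, 12.32 and 12.19 in control colons. The severe colons stood above all controls, while the moderate colons overlapped with them. Over all inflamed colons the log2 difference was 0.23 (SE 0.09) with an adjusted p of 0.0505, just outside the threshold. It passed in several other settings, 1 of them the gene's mean over both probe sets (0.25, adjusted p = 0.0446), and it was 0.28 (adjusted p = 0.0349) without control 2 and 0.26 without moderate colon 1 (adjusted p = 0.0354) or moderate colon 2 (adjusted p = 0.036).

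Pdia4 encodes a protein disulfide isomerase. Its log2 values were 9.64, 9.82 and 10.03 in severe colons and 9.57, 9.68 and 9.73 in moderate colons, against 9.22, 9.28, 9.40 and 9.16 in control colons. The groups did not overlap, and Pdia4 was higher by 0.48 on the log2 scale (SE 0.09, adjusted p = 0.00145).

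Creld2 encodes an ER protein induced by ER stress, and it had the largest rise of the 10 genes. The severe colons had log2 values of 9.79, 10.03 and 10.22 and the moderate colons of 9.81, 9.80 and 10.22, against 8.71, 9.08, 8.92 and 8.78 in control colons. The gap between the lowest inflamed and the highest control colon was wider than the spread within either group. The difference was 1.11 on the log2 scale (SE 0.11, 95% interval 0.85 to 1.36, adjusted p = 2.36e-05).

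Sdf2l1 encodes an ER lumen protein that works with BiP and its co-chaperones. Its log2 values were 9.49, 9.55 and 9.79 in severe colons and 9.38, 9.47 and 10.09 in moderate colons, against 8.86, 9.40, 9.37 and 9.19 in control colons. Moderate colon 1 lay below control 2, and the groups overlapped there. Sdf2l1 passed by a small margin, with a log2 difference of 0.42 (SE 0.15, adjusted p = 0.0404). The call ended when 1 colon was left out, whether control 1 (0.31, adjusted p = 0.136), control 4 (adjusted p = 0.0827), severe colon 2 (adjusted p = 0.0543), severe colon 3 (adjusted p = 0.0778) or moderate colon 3 (0.33, adjusted p = 0.0535).

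Herpud1 encodes a membrane protein of ER-associated degradation. The severe colons had log2 values of 11.04, 10.85 and 11.16 and the moderate colons of 10.74, 10.96 and 10.45, against 10.06, 10.20, 10.27 and 10.24 in control colons. All inflamed colons were above all controls, though moderate colon 3 was close to them. Herpud1 was higher by 0.68 on the log2 scale (SE 0.12, 1.60-fold, adjusted p = 0.000897).

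Severe and moderate colons were also compared with control separately. In severe colons 7 genes were higher and 1 was lower, and in moderate colons 6 were higher and 1 was lower, where the calls over all genes were 16.1% higher and 18.9% lower for severe colons and 13.2% higher and 16.7% lower for moderate colons. Hspa5, Hyou1, Creld2, Pdia4, Xbp1 and Herpud1 rose and Ern2 fell in both comparisons, which share the control colons and 1 estimate of the spread. Hsp90b1 rose in severe colons (0.33, SE 0.09, adjusted p = 0.0139), and its difference in moderate colons was 0.13 (adjusted p = 0.311). The call in severe colons ended relative to the epithelial markers described below (0.17, adjusted p = 0.196) and with the replicate number as a block (0.28, adjusted p = 0.0577). Sdf2l1 passed in neither, with 0.40 in severe colons (adjusted p = 0.114) and 0.44 in moderate colons (adjusted p = 0.097). Ern1 differed by -0.23 in severe colons (adjusted p = 0.0978) and by -0.17 in moderate colons (adjusted p = 0.235).

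Single colons decided some of these calls. In moderate colons, Xbp1 was higher by 0.33 (adjusted p = 0.0147) with all 3 colons and by 0.24 (adjusted p = 0.0593) without moderate colon 2. Pdia4 was higher by 0.40 (adjusted p = 0.0149) with all 3 and by 0.36 (adjusted p = 0.0506) without moderate colon 3. In severe colons, Ern1 reached -0.29 (adjusted p = 0.0476) without control 4, and the adjusted p of Sdf2l1 was 0.0448 once moderate colon 3, which enters only the shared spread, was left out.

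**Figure D2:**
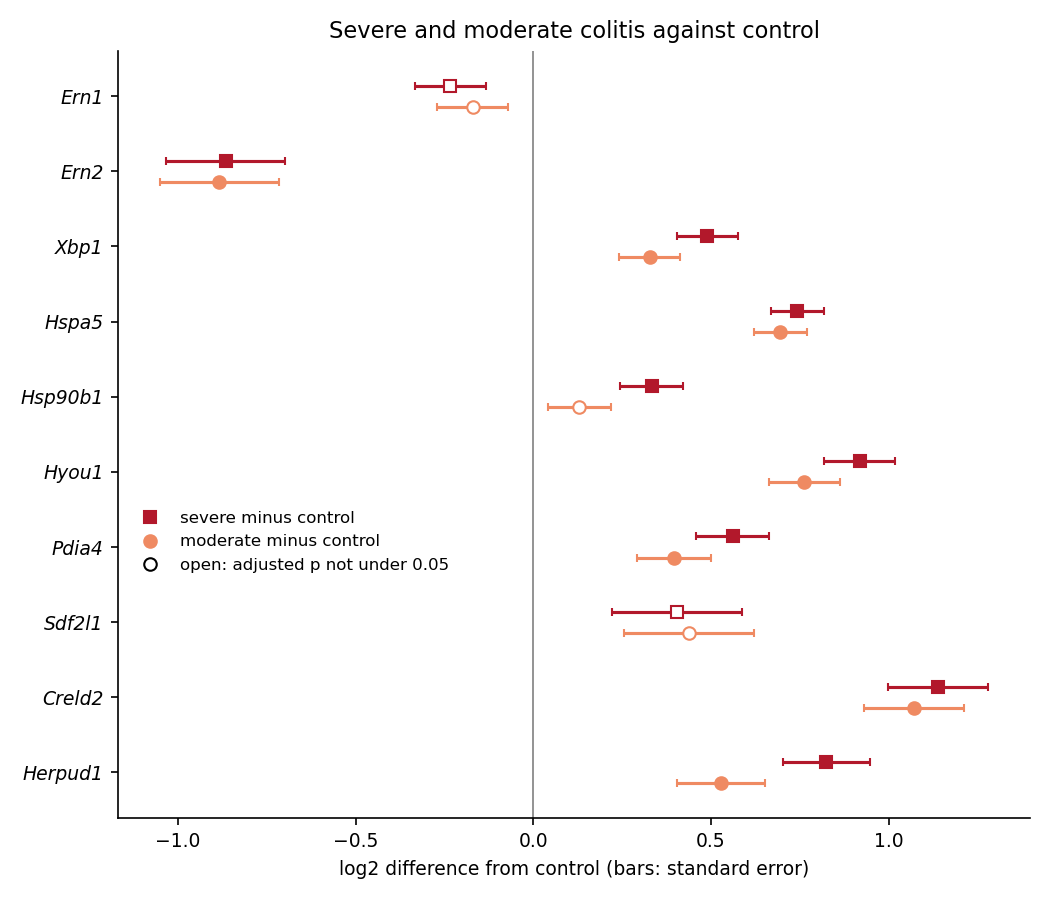
Log2 difference from control (horizontal axis) of each of the 10 genes in severe colons (squares, upper) and moderate colons (circles, lower), with the SE as bars; filled symbols passed at an adjusted p under 0.05 and open symbols did not. Ern2 lies left of 0 in both, Ern1 and Sdf2l1 are open in both, and Hsp90b1 is filled in severe colons and open in moderate colons.

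The difference between severe and moderate colons was tested directly. None of the 10 genes passed, and neither did any of the 18193 genes (0% called, limma, lowest adjusted p 0.233). At an unadjusted p under 0.05 limma gave 922 genes and the methods' t-test 643, none of which passed after Benjamini-Hochberg adjustment. Over all genes limma called 14 higher and 6 lower without moderate colon 2, 1 higher and 4 lower without severe colon 2 and 1 lower without moderate colon 1, and in none of these were any of the 10 genes called. Among the 10 genes the log2 differences, severe minus moderate, ran from -0.06 (Ern1) to 0.30 (Herpud1), with a median of 0.11 beside -0.0046 over all genes. Herpud1 averaged 11.02 in severe colons and 10.72 in moderate colons, with a 95% interval of the difference from 0.0039 to 0.59 (unadjusted p = 0.0475, adjusted p = 0.98). Without moderate colon 3 the difference of Herpud1 was 0.16, and over all colons left out in turn it ran from 0.16 to 0.42. Hsp90b1 averaged 12.70 in severe colons and 12.50 in moderate colons, and the interval ran from -0.0080 to 0.41 (adjusted p = 0.98). For Hspa5 the difference was 0.05 with an interval from -0.13 to 0.23, and for Ern2 it was 0.02 with an interval from -0.38 to 0.41. The tests did not show that severe and moderate colons were equal.

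The further probe sets of each gene were read as repeat measures of the same colons. Of the 24 probe sets, 15 were higher in inflamed colon, 1 was lower (Ern2) and 8 did not pass, in a fit over all 34945 single-gene probe sets in which 16.5% were higher and 19.4% lower. All 3 probe sets of Hspa5 were higher (log2 differences of 0.72, 0.87 and 0.31), as were all 4 of Xbp1 (0.38 to 0.72), both of Herpud1 (0.68 and 0.60) and all 3 of Hyou1 (0.36 to 0.84). For Hsp90b1 both stopped short of the threshold, at 0.23 and 0.27. All 5 probe sets of Ern1 did not pass, with log2 differences between -0.20 and 0.15, so the direction of its lead probe set was not shared by all. The second probe set of Pdia4 and 2 of those of Ern1 had means below the lower quartile of the arrays, which was 4.14 to 4.22. Ern2, Sdf2l1 and Creld2 have 1 probe set each.

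**Figure D3:**
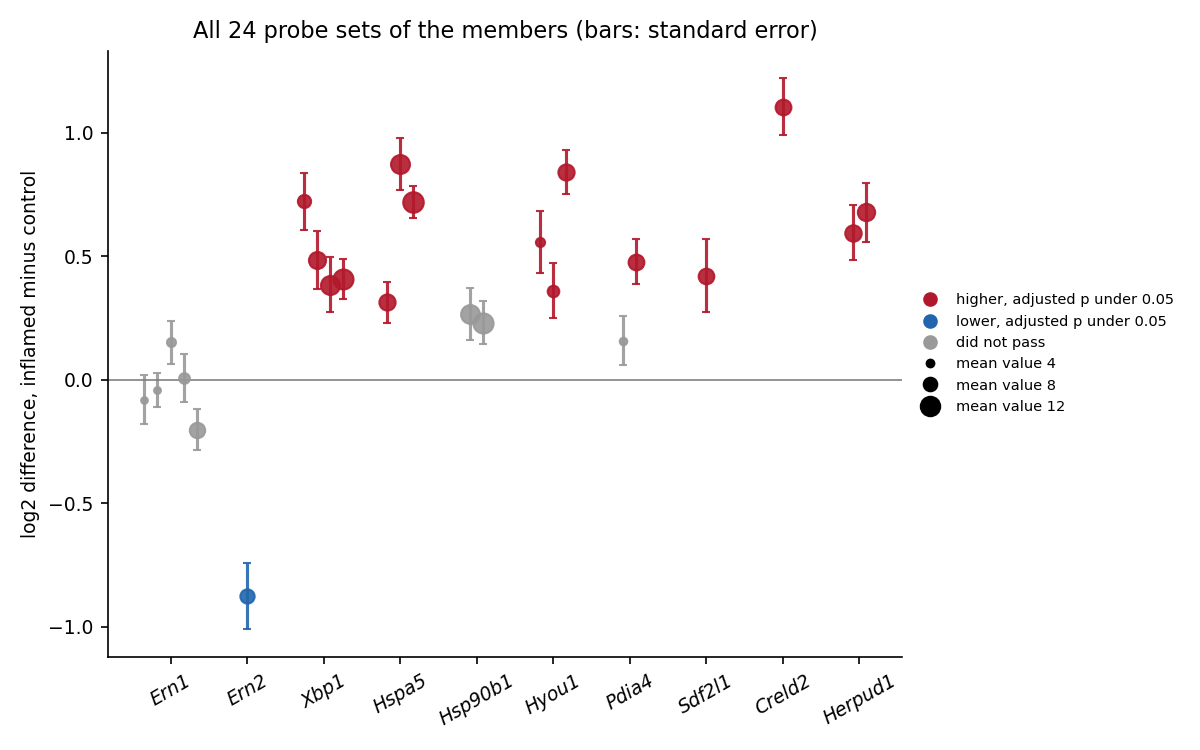
Log2 difference, inflamed minus control, with its SE (vertical axis) for each of the 24 probe sets, placed by gene and, within a gene, from the dimmest to the brightest; point size gives the mean log2 value over the 10 arrays. Red points (15) were higher, blue (1, Ern2) lower and grey (8) did not pass.

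The remainder of the pathway was described by 5 lists, in which 40% to 61.9% of the measured genes were higher and 4.76% to 25% lower, beside the 18.5% and 21.2% of all genes. Among 14 further ER chaperones and folding factors, 6 were higher, 1 was lower and 7 did not pass, with a median log2 difference of 0.25. Manf, an ER-resident secreted protein induced by ER stress, had log2 values of 11.67, 11.66 and 11.78 in severe colons and 11.47, 11.55 and 11.77 in moderate colons, against 10.74, 10.72, 10.86 and 10.71 in control colons. It rose by 0.89 (adjusted p = 8.08e-06), and Dnajc3, a co-chaperone of BiP, by 0.57 (adjusted p = 0.000197). Serpinh1, the collagen chaperone, fell by 0.85 (adjusted p = 0.00054), and it stood alone in that direction in its list. Dnajb9, a co-chaperone known as a target of spliced XBP1 and named after its value was seen, differed by 0.01 (adjusted p = 0.931).

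Of 15 oxidoreductases and partners in disulfide formation, 6 were higher, 3 were lower and 6 did not pass (median 0.08). Ero1a, the oxidase that recharges the isomerases, had log2 values of 10.55, 10.35 and 10.86 in severe colons and 9.94, 10.39 and 10.00 in moderate colons, against 9.05, 8.98, 9.01 and 9.08 in control colons. Its rise of 1.32 (SE 0.15, adjusted p = 5.18e-05) was larger than that of any of the 10 genes above. P4hb, the best known disulfide isomerase, rose by 0.56 (adjusted p = 0.000425). Txndc5, an isomerase, and Agr2, an isomerase needed for mucin folding, fell by 0.49 (adjusted p = 0.00188) and by 0.31 (adjusted p = 0.0282).

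In ER-associated degradation, 14 of 15 listed genes were measured, of which 6 were higher, 1 was lower and 7 did not pass (median 0.12). Syvn1, the ubiquitin ligase of this route, rose by 0.58 (adjusted p = 0.000456) and Derl2, a channel component, by 0.56 (adjusted p = 4.86e-05), while Herpud2, the relative of Herpud1, fell by 0.28 (adjusted p = 0.00479).

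Of the machinery that brings proteins into the ER and adds their sugars, 21 of 22 genes were measured, and this list had the largest share of higher calls of the 5, with 13 higher, 1 lower and 7 not passed (median 0.33). Sec61a1, the pore of the translocon, rose by 0.69 (adjusted p = 4.61e-05) and Ssr1, a translocon-associated protein, by 0.55 (adjusted p = 7.41e-05). Sec62, a translocon partner, fell by 0.46 (adjusted p = 0.000209).

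The further sensors and signalling factors moved in both directions, with 9 higher, 5 lower and 6 not passed of 20 measured genes out of 21 (median 0.14). Eif2ak3, which encodes PERK, rose by 0.41 (adjusted p = 0.00368). Atf6 differed by -0.25 (adjusted p = 0.0718) and Atf4 by 0.12 (adjusted p = 0.352), and neither passed. Ddit3, the transcription factor CHOP of sustained ER stress, had log2 values of 7.28, 7.56 and 7.47 in severe colons and 7.47, 7.50 and 7.29 in moderate colons, against 8.10, 7.85, 7.97 and 7.73 in control colons. It fell by 0.49 (adjusted p = 0.000937), with no overlap between inflamed and control colons.

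Chac1 and Trib3, known targets of ATF4, were higher. Chac1, an enzyme that breaks down glutathione, had log2 values of 8.64, 7.74 and 7.66 in severe colons and 6.84, 6.88 and 6.56 in moderate colons, against 5.50, 5.43, 5.46 and 5.75 in control colons. The rise over all inflamed colons was 1.85 (SE 0.34, adjusted p = 0.000989). Chac1 averaged 8.01 in severe colons and 6.76 in moderate colons, but no gene of this list passed between severe and moderate colons. Trib3, a pseudokinase, rose by 0.46 (adjusted p = 0.0315). Creb3l4 and Creb3l1, ER-anchored transcription factors, fell by 0.98 (adjusted p = 0.000257) and by 0.84 (adjusted p = 5.35e-05).

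Exact ERSE matches were counted in these lists too. They stood in 3 of the 11 chaperone windows at hand (Calr, Canx and Dnajc3), in 2 of 14 of the disulfide list (Ero1b and Pdia6), in 2 of 12 of the degradation list (Derl3 and Syvn1) and in 0 of 16 of the translocon list and 0 of 16 of the sensor list. Calr, Dnajc3, Ero1b and Syvn1 were among the genes that rose, and Canx (0.06, adjusted p = 0.486), Pdia6 (0.08, adjusted p = 0.539) and Derl3 (0.08, adjusted p = 0.59) did not pass.

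**Figure D4:**
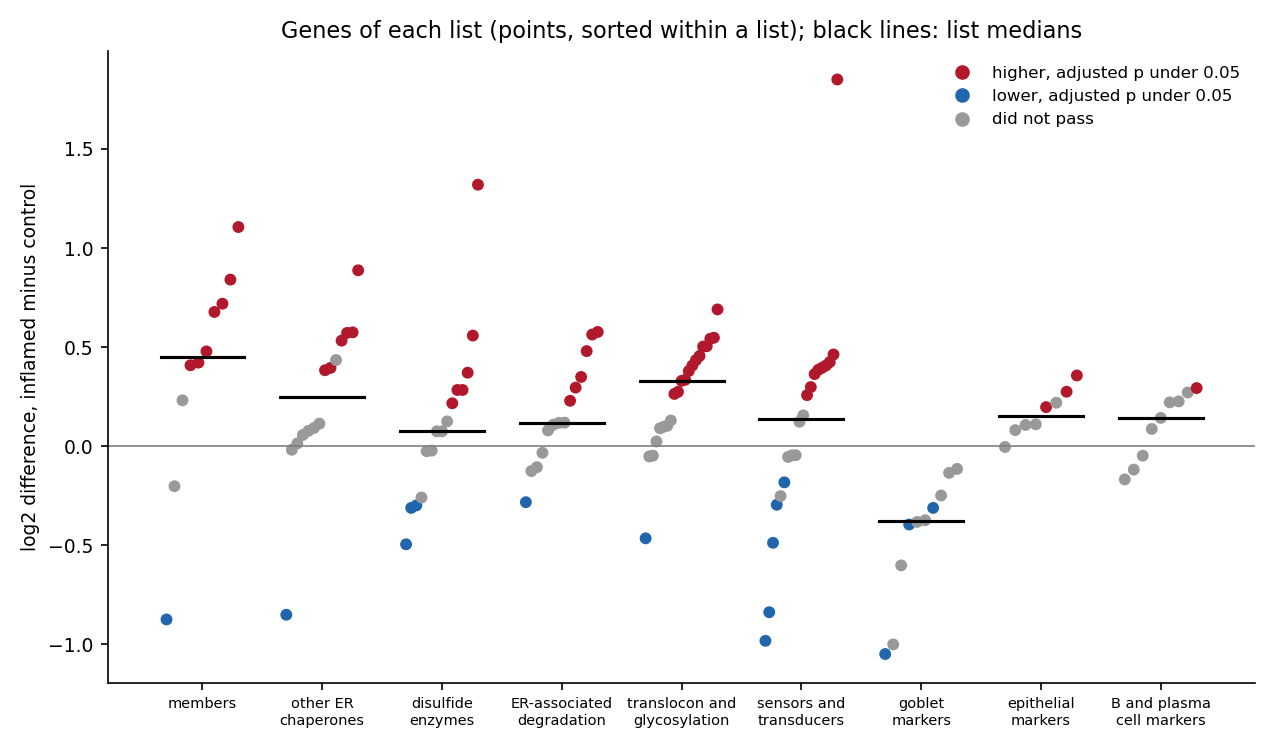
Log2 difference, inflamed minus control (vertical axis), of every measured gene of the 5 pathway lists and of 3 marker lists (goblet cells, epithelium, B and plasma cells), with the 10 genes described here at the left, each list sorted and drawn as points with its median as a black line. The median of the 10 genes lies at 0.45, those of the 5 pathway lists between 0.08 and 0.33 and that of the goblet cell markers at -0.38.

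The samples are whole tissue, in which a lower value may stand for fewer cells of a type or for less RNA per cell, and these cannot be told apart. Marker lists moved between the groups. All 11 leukocyte markers were higher in inflamed colon (median 1.78), and their mean level per array ran from 7.71 to 9.22 in inflamed colons and from 5.51 to 5.97 in control colons. All 8 smooth muscle markers were lower (median -1.54), with array means from 9.21 to 10.01 in inflamed colons and from 10.94 to 11.31 in control colons. Of 8 general epithelial markers 3 were higher and 5 did not pass (median 0.15), with array means from 13.13 to 13.28 in inflamed colons and from 13.02 to 13.08 in control colons. The part of these shifts in the values of the 10 genes was not tested.

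Relative to the mean of the epithelial markers on each array, a scaling chosen after seeing the data, 1735 genes were higher and 6297 lower in place of 3372 and 3850. On that scale Hspa5, Hyou1, Pdia4, Xbp1, Creld2 and Herpud1 were still called higher and Ern2 lower. The difference of Sdf2l1 was 0.25 (adjusted p = 0.178), Hsp90b1 was at 0.06 (adjusted p = 0.599) and Ern1 was lower by 0.37 (adjusted p = 0.00502).

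Goblet cell markers bear on Ern2. Of the 10 markers 0 were higher, 3 were lower and 7 did not pass (limma, median -0.38), and the lower ones were Muc2, the main secreted mucin, Atoh1, the factor that commits cells to secretion, and Agr2. The mean level of the list per array ran from 11.23 to 12.14 in inflamed colons and from 12.05 to 12.28 in control colons. Severe colon 1 was lowest both for this list and for Ern2. Among the controls, control 2 was lowest for both, at 12.05 and 8.65. Moderate colon 2 had a list mean of 12.14, above control 2 and below the other controls (12.24 to 12.28). Its Ern2 value of 8.24 was below that of every control. Relative to the mean of the list on each array, chosen after seeing the data, the difference of Ern2 was -0.41 (adjusted p = 0.0599). The part of the goblet cell shift in the lower Ern2 value was not tested further.

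Plasma cells carry an expanded ER. These Rag1-/- mice make no B cells, and so no plasma cells, of their own. Of 9 measured B and plasma cell markers 1 was higher, Ms4a1 (0.29, adjusted p = 0.0483), and 8 did not pass. Ms4a1 was dim, at 4.04 to 4.62 in inflamed colons and 3.81 to 4.18 in control colons, around the lower quartile of the arrays (4.14 to 4.22). The mean of the list ran from 4.32 to 4.56 in inflamed colons and from 4.23 to 4.41 in control colons. Jchain, the joining chain of secreted antibodies, ran from 2.87 to 3.21 in inflamed colons and from 2.76 to 3.10 in control colons, below the lower quartile of every array. Tnfrsf17 and Pou2af1 also lay below it, with highest values of 3.97 and 2.86 in inflamed colons and 3.84 and 2.77 in control colons. Ighm, an immunoglobulin heavy chain, ran from 6.28 to 6.73 in inflamed colons and from 6.55 to 7.04 in control colons, above the median of every array, and Igha and Mzb1 lay well above the lower quartile. The part of these markers in the values of the 10 genes was not tested.

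The genes whose profile was most like that of Hspa5 over the 10 arrays, among 9095 genes with a mean above the median gene, were Gpd2, Manf, Tgm2, Mb21d2 and Pigm, with Pearson's r from 0.987 to 0.991. Those most like Ern2 were Hoxb9, Ppa2, Mrs2, Acot13 and Pard3, with r from 0.974 to 0.982. Such values carry the difference between the groups, which all 10 genes named here share, and are given as a description with no test. Within the 6 inflamed colons alone, r ran from 0.728 (Tgm2) to 0.977 (Gpd2) with Hspa5 and from 0.891 (Ppa2) to 0.975 (Acot13) with Ern2.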

How the data were processed

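RNA was measured on Affymetrix mouse arrays. The authors deposited log2 values for each probe set, made according to the submitters' processing notes in Expression Console by RMA, which subtracts background, gives all arrays 1 distribution of values and summarises probes (versions not given). For RNA extraction the labels say Trizol, while a Qiagen RNeasy kit is named in the paper's methods. Neither detection calls nor scan dates were examined. Array medians over single-gene probe sets were 5.83 to 5.90, and the low number of arrays sets the precision.

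Of 45101 probe sets, 34945 are annotated to 1 gene. The tests used limma 3.58.1 (two-sided; R 4.3.3; lmFit, eBayes) at a threshold of 0.05 after Benjamini-Hochberg adjustment over 18193 genes. One model held inflamed and control colons, and another held the 3 severity groups. The script was checked on data with known differences. The titles call the replicates biological, and the paper's methods count the colons used for the arrays as animals.

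The members and lists were chosen with earlier results of these data known. Named were all 10 members, the 2 largest rises and falls past the threshold of each pathway list, Atf6, Eif2ak3, Atf4 and Ddit3, and the 5 genes most like Hspa5 and Ern2. Markers and further genes with a promoter match were named after their values were seen. List genes that the annotation used pairs with no probe set of their own were not analysed here. Srpra was read under its older symbol Srpr.

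Alternatives were the mean over probe sets, a fit over all probe sets, a filter on dim genes, centring, a trended robust variance, the methods' t-test, the 3-group model for inflamed colons, the replicate number as a block, each array left out, and 1 mismatch in the ERSE. Scaling to the epithelial or goblet cell list was added after seeing the data. The promoter windows cover 27025 genes. Plots were made with Python 3.11.15 and matplotlib 3.10.9.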

Additional observations from a re-analysis of the deposited data

Results flagged for a closer look

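Of 48 groups of probe set values tested for a single array far from the rest, 1 stood out, and chance alone picks about 1 in 20 such groups. For 1 of the 4 probe sets of Xbp1, not the one used for the gene, moderate colon 1 had a log2 value of 10.17 while the other 5 inflamed colons had 10.61 to 10.83, and the 4 control colons had 9.98 to 10.22. The gap from moderate colon 1 to the next inflamed colon was larger than Dixon's limit for 6 samples. The probe set used for Xbp1 had 12.44 in that colon, above all 4 controls.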

How the results depend on the processing

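Hspa5, Hyou1 and Creld2 kept their calls in both severity groups and over all inflamed colons under every alternative run, and Ern2 did so under all but the goblet cell scaling. The count of the 10 genes lower in inflamed colon was 2 in place of 1 under the replicate block, under the methods' t-test without adjustment and relative to the epithelial list. The added gene was Ern1, at -0.26 (adjusted p = 0.0465) with the block. With the block, Hsp90b1 in severe colons was at 0.28 (adjusted p = 0.0577). Samples with the same replicate number had deviations that correlated between -0.08 and 0.29, and samples with different numbers between -0.31 and 0.17. The highest values were those of severe 1 with moderate 1 (0.29) and severe 2 with moderate 2 (0.25). The main fits did not take the numbers to pair the mice, and what the numbers stand for was not tested. Relative to the epithelial list the count of lower genes was also 2 in severe and in moderate colons, Hsp90b1 in moderate colons was at -0.040, and Pdia4 (0.23, adjusted p = 0.0978) and Xbp1 (0.16, adjusted p = 0.215) were no longer called there, nor was Hsp90b1 in severe colons (0.17, adjusted p = 0.196). Relative to the goblet cell list Ern2 was at -0.27 in severe colons (adjusted p = 0.261) and at -0.56 in moderate colons (adjusted p = 0.0715). With the mean over probe sets, Ern1 in moderate colons was at 0.0017 and Pdia4 in severe against moderate colons at -0.025. The methods' t-test without adjustment called 1 of the 10 genes, Hsp90b1, higher in severe than in moderate colons, and its adjusted p was 0.0825 for Sdf2l1 in inflamed colons and 0.0515 for Herpud1 in moderate colons. In 1 model of 3 groups the adjusted p over all inflamed colons was 0.0316 for Hsp90b1 and 0.0512 for Sdf2l1. The ERSE count was 5 with 1 mismatch. With each array left out in turn, higher and lower genes numbered 6 to 8 and 1 to 2 in inflamed colons, 7 to 8 and 1 to 2 in severe colons, 5 to 6 and 1 in moderate colons and 0 in severe against moderate colons, and probe sets 13 to 17 and 1 to 2. Severe minus moderate then ran from -0.17 to 0.19 for Sdf2l1, from -0.088 to 0.20 for Ern2 and from -0.036 to 0.20 for Creld2. The causes were not tested.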
